A study of Mus musculus with 15 samples.

Results

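Acinar digestive enzymes are made by the exocrine cells that surround the pancreatic islets, and their transcripts were followed in RNA from isolated islets. The group holds 10 genes (Prss2, Cpa1, Cpb1, Cela1, Cela2a, Cela3b, Ctrb1, Pnlip, Cel and Pnliprp1), chosen by symbol among the 48709 genes of the deposited count table. All 10 were in the table and passed the filter on low counts, as did 16554 genes in all. The islets came from 15 female NOD mice, 3 at each of 5 ages (4, 6, 8, 10 and 12 weeks), for which the labels name the genotype NOD and no treatment. NOD is an inbred strain in which leukocytes enter the islets and many females become diabetic, and every group compared here is of this strain. Each sample is the islet RNA of a single animal, and a fold change between ages compares different animals. According to the study's methods, collagenase was perfused through the duct, islets were separated on a Histopaque density gradient and then picked by hand, steps that remove exocrine tissue but need not remove all of it.

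Acinar cells store digestive enzymes in zymogen granules and release them into the ducts when a meal stimulates them. Most of the enzymes are made as inactive precursors, which trypsin activates in the gut. The transcription factor complex PTF1, made of Ptf1a, Rbpjl and a common E protein, binds many of the enzyme promoters at an E box next to a second element, the TC box. Acinar cells are the main known source of these enzymes, whose messages are among the most abundant of the whole pancreas.

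Among the proteases, Prss2 (ENSMUSG00000057163, chromosome 6, 41521787 to 41525079, plus strand) encodes an anionic trypsinogen, the precursor of trypsin. Ctrb1 (ENSMUSG00000031957, chromosome 8, 111686519 to 111691010, minus strand) encodes chymotrypsinogen B, and Cela1 (chromosome 15, 100674425 to 100687920, minus strand), Cela2a (chromosome 4, 141814962 to 141826160, minus strand) and Cela3b (chromosome 4, 137420999 to 137430540, minus strand) encode elastase-like serine proteases. Cpa1 (chromosome 6, 30639218 to 30645363, plus strand) and Cpb1 (chromosome 3, 20248264 to 20275733, minus strand) encode carboxypeptidases A and B, which remove residues from the ends of peptides. Of the lipases, Pnlip (chromosome 19, 58670365 to 58681786, plus strand) encodes pancreatic triglyceride lipase and Cel (chromosome 2, 28555795 to 28563403, minus strand) encodes bile salt-dependent lipase. Pnliprp1 (chromosome 19, 58728887 to 58744169, plus strand) encodes a relative of pancreatic lipase with little known lipase activity. Coordinates are whole gene spans on GRCm38 (mm10), as the count table gives them.

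The promoters of 3 members are shown as background. Any part of their sequence in the levels across mice was not tested. They are examples with and without CACCTG, a form of the E box, all with a motif that resembles the TC box. Each line is the 250 bases before the RefSeq start on GRCm38.p6, written 5′ to 3′ on the strand of the gene, at chr6:41521526-41521775 for Prss2, chr8:111691011-111691260 for Ctrb1 and chr2:28563404-28563653 for Cel. Capitals mark the E box CACCTG, the short element TTTCCC, the longer element TGGGAAA whose reverse complement is the short element followed by an A, and the TATA box TATAAA. All of these motifs were marked on both strands, so that some capitals read as the reverse complement.
Prss2: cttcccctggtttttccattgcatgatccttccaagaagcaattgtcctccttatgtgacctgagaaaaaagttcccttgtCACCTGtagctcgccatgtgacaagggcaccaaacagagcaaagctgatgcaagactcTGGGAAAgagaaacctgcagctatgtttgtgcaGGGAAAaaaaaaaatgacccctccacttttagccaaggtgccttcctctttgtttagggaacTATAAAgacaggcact
Ctrb1: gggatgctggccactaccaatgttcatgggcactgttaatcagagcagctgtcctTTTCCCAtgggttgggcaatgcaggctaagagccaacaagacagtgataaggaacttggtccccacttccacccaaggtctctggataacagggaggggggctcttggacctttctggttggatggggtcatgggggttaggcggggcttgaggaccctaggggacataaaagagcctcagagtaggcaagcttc
Cel: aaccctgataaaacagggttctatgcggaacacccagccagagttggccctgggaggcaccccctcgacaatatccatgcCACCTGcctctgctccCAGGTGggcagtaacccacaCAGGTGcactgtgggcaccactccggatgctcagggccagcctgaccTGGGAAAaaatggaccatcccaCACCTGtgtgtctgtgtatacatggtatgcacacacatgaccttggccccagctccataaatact

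CACCTG, an E box, was in the windows of 6 of 10 members on either strand and in 17.2% of the 32851 promoter windows of the same length. TGGGAAA was in 5 of 10 members and 6.82% of all windows, and TTTCCC, whose reverse complement lies within TGGGAAA, was in 6 of 10 members and 21.9% of all windows. Prss2 and Cel, shown above, held both CACCTG and TGGGAAA, whereas Ctrb1 held TGGGAAA on the opposite strand and no CACCTG. Ctrb1 did hold CAGCTG, another form of the E box, a few bases before that element. The general E box CANNTG, where N is any base, was in 9 of 10 members and 66.2% of all windows. Cel held 4 copies of CACCTG, and Pnlip and Pnliprp1 held neither CACCTG nor TTTCCC. On the strand of the gene, TATAAA was in 3 of 10 members (Prss2, Cela1 and Pnlip) and in 7.59% of all windows. These are matches of letters in the reference sequence and not measured binding.

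The members were detected in every mouse, at levels that differed widely between mice of the same age. Together they took 0.141% of the counts in replicate 1 of the 4-week-old mice (95% Wilson interval 0.1398 to 0.1425) and 1.91% in replicate 1 of the 10-week-old mice (1.906 to 1.917), a 13.5-fold range. These intervals cover counting error only. At 4 weeks the share was 0.141, 1.13 and 0.154% in replicates 1 to 3. At 6 weeks it was 0.997, 0.237 and 0.550%, and at 8 weeks 0.645, 0.359 and 0.201%. At 10 weeks it was 1.91, 0.759 and 0.238%, and at 12 weeks 1.65, 1.04 and 0.426%. Replicate 2 stood above both other mice at 4 weeks, replicate 1 was highest at the other 4 ages, and every pair of ages overlapped. The mean share by age was 0.475% ± 0.567 in the 4-week-old mice, 0.595% ± 0.382 at 6 weeks, 0.402% ± 0.225 at 8 weeks, 0.969% ± 0.856 at 10 weeks and 1.04% ± 0.612 at 12 weeks (SD, n = 3). Within an age the highest and lowest mice differed between 3.21-fold (8 weeks) and 8.03-fold (10 weeks). In bulk RNA, fewer acinar cells and less enzyme RNA per acinar cell cannot be told apart.

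The same mice were high or low for each enzyme. Levels are given as CPM, the counts of a gene relative to the library size after TMM scaling, which makes libraries comparable. Prss2 stood at 112, 868 and 125 CPM in the 4-week-old mice, 795, 171 and 420 at 6 weeks, 498, 264 and 154 at 8 weeks, 1280, 547 and 176 at 10 weeks and 1120, 678 and 282 at 12 weeks. Trypsinogen message therefore spanned 11.5-fold over the 15 mice, with the 4-week replicate 2 above all 3 mice of 8 weeks. Ctrb1 stood at 352, 2890 and 404 CPM at 4 weeks, 2540, 591 and 1330 at 6 weeks, 1580, 808 and 455 at 8 weeks, 4080, 1590 and 506 at 10 weeks and 3350, 2100 and 853 at 12 weeks. Pnlip stood at 194, 1720 and 224 CPM at 4 weeks, 1530, 391 and 866 at 6 weeks, 1010, 541 and 262 at 8 weeks, 2590, 1020 and 338 at 10 weeks and 2280, 1430 and 515 at 12 weeks. Chymotrypsinogen and lipase messages thus kept the order of mice that Prss2 showed within each age.

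The other 7 members had the same shape. Cela1 ran from 167 to 1660 CPM with a median of 597, Cela2a from 212 to 2640 with a median of 838, and Cela3b from 52.2 to 709 with a median of 210. The carboxypeptidase Cpa1 ran from 104 to 1300 CPM (median 464) and Cpb1 from 105 to 1240 (median 382). Cel ran from 130 to 1440 CPM (median 505) and Pnliprp1 from 64.5 to 644 (median 251). All 10 members were highest in replicate 1 at 10 weeks, and 9 were lowest in replicate 1 at 4 weeks, the exception being Cela2a, which was lowest in replicate 3 of that age. The lowest count of any member in any mouse was 1394 (Cela3b), so counting error is small beside these differences.

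**Figure D1:**
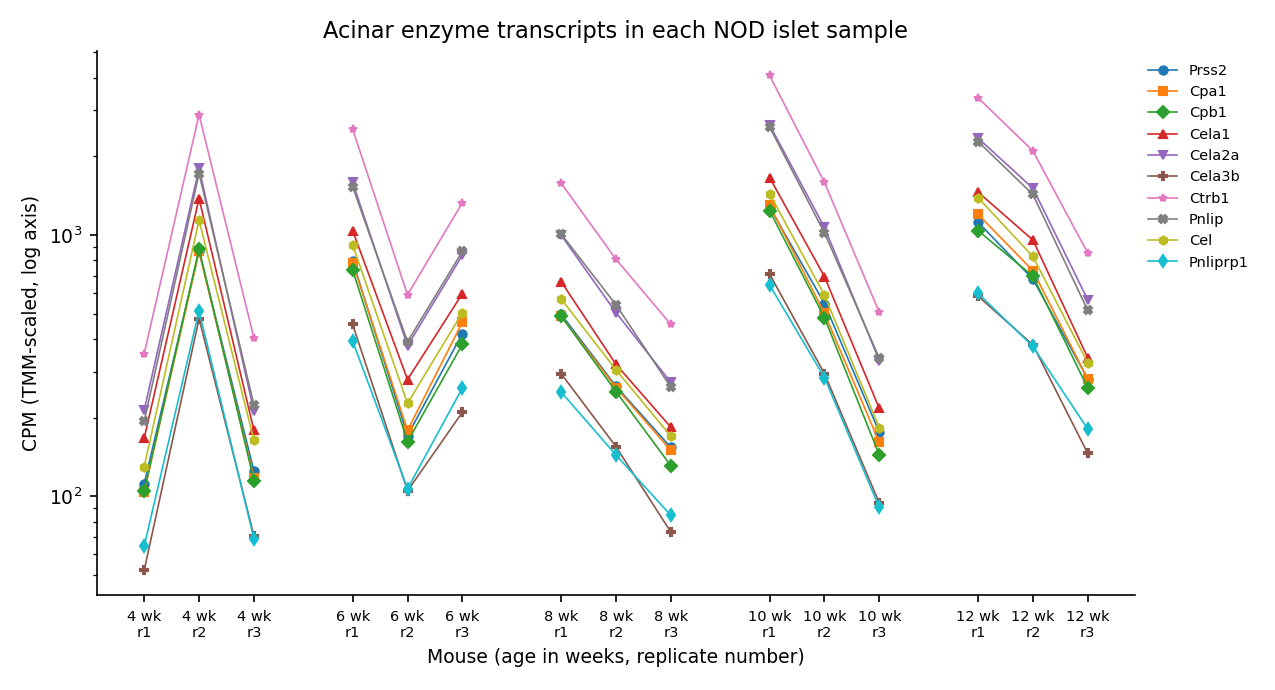
Level of each of the 10 members in each of the 15 mice, as CPM on a log axis, with lines joining the 3 mice of an age and no meaning in their order. The lines of the 10 genes run side by side within each age, and replicate 2 at 4 weeks and replicate 1 at 10 weeks stand out as high for every member.

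With all mice and without the acinar index described below, no member changed with age at an adjusted p under 0.05 in edgeR's quasi-likelihood test. This held in every comparison. Between neighbouring ages, 0 of 10 members passed at 6 against 4 weeks (0.0906% of all genes tested did), 0 of 10 at 8 against 6 weeks (0% of all genes), 0 of 10 at 10 against 8 weeks (16.8%) and 0 of 10 at 12 against 10 weeks (0%). At 12 against 4 weeks 0 of 10 passed beside 53.5% of all genes, and at 10 and 12 against 4 and 6 weeks 0 of 10 beside 63.8%. In a joint test of any difference among the 5 ages the count was 0 of 10 beside 56.0%. Unadjusted p-values under 0.05 were also reached by 0 of 10 members in each of these tests, for which no share over all genes is given. DESeq2 called 0 of 10 in each. Of the genes it tested, it called 1.63% at 6 against 4 weeks and 3.29% at 8 against 6. It called 25.3% at 10 against 8, 0.0822% at 12 against 10 and 52.8% at 12 against 4. Its share was 62.1% at 10 and 12 against 4 and 6 weeks and 59.2% in the joint test. At the study's threshold of a 1.5-fold change with an unadjusted p under 0.05, 0 of 10 members passed in any comparison. Of all genes, 2.90% passed it at 6 against 4 weeks, 9.82% at 8 against 6, 13.9% at 10 against 8, 2.17% at 12 against 10, 31.9% at 12 against 4 and 30.2% at 10 and 12 against 4 and 6 weeks. The mice of the groups compared overlapped for each member in every comparison, giving 0 of 10 without overlap. Of all genes, 17.6% had no overlap at 6 against 4 weeks, 19.3% at 8 against 6, 32.7% at 10 against 8, 9.82% at 12 against 10, 64.2% at 12 against 4 and 36.7% at 10 and 12 against 4 and 6 weeks.

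The size of the age differences was set against a wide error. At 12 against 4 weeks the log2 fold change was 0.91 for Prss2 (SE 0.899, adjusted p = 0.411), 0.79 for Ctrb1 (SE 0.915, adjusted p = 0.486) and 0.98 for Pnlip (SE 0.933, adjusted p = 0.392), all from edgeR. The lowest estimate was that of Cela1 (0.68) and the highest that of Cpa1 (1.02), and the median over the 10 members was 0.87 beside -0.05 over all genes. At 10 against 8 weeks the members lay between 1.07 and 1.18 (SE 0.868 to 0.943), and at 8 against 6 weeks between -0.71 and -0.55 (SE 0.862 to 0.936). At 6 against 4 weeks they lay between 0.15 and 0.39, and at 12 against 10 weeks between 0.02 and 0.20. The point estimates were thus up at 3 steps and down at 1 step, and none of these differences was called. Other acinar products were alike at 12 against 4 weeks, with 0 of 16 index enzymes called (median log2 fold change 0.75, from -1.17 for Prss1 to 1.22 for Clps and Amy2a5) and 0 of 12 further secretory genes called (median 0.75).

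A single mouse decided the call at 12 against 4 weeks. Without replicate 2 of the 4-week-old mice, whose members took 1.13% of counts against 0.141 and 0.154% in the other 2, all 10 members were higher at 12 than at 4 weeks, by 2.41 (Cela1) to 2.79 (Cela2a) on the log2 scale, with edgeR adjusted p-values from 0.0279 (Pnliprp1) to 0.0456 (Cela1). Without it all 10 were also called at 10 and 12 against 4 and 6 weeks, by 1.42 to 1.66 on the log2 scale, where with all mice the estimates were 0.55 to 0.76 (SE 0.609 to 0.662). Of all genes, 46.5% were called at 12 against 4 weeks without this mouse, and 61.2% at 10 and 12 against 4 and 6 weeks. Leaving it out also raised the calls at 12 against 4 weeks from 0 to 8 of 16 among the index enzymes described below and from 0 to 8 of 12 among the further secretory genes, all higher. Leaving out any other mouse gave 0 of 10 calls of members in both comparisons. Of all genes, 43.2 to 55.1% were then called in the first and 59.7 to 65.7% in the second. Replicate 2 of 4 weeks had summed leukocyte markers of 27.8 CPM, between the 15.6 and 83.4 CPM of the other 4-week-old mice. Its summed endocrine markers were 344000 CPM, above their 311000 and 336000 CPM. Nothing in the labels sets it apart.

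**Figure D2:**
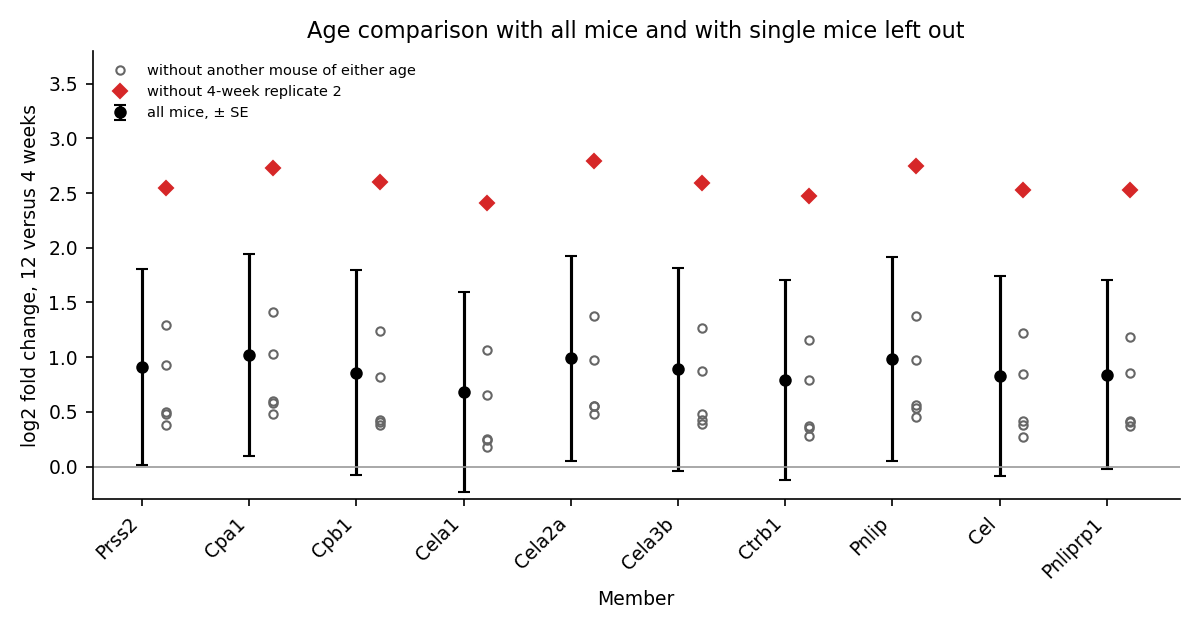
Log2 fold change at 12 against 4 weeks for each member, with all mice (black, bar is the SE of the edgeR fit) and with each of the 6 mice of these ages left out in turn (open circles, or a red diamond for replicate 2 of 4 weeks). The red diamonds lie between 2.41 and 2.79, above every other estimate.

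The members spread more between mice of the same age than most genes did. The SD of log2 CPM, pooled over the 5 ages, was 1.20 (Pnliprp1) to 1.31 (Cpb1), with a median of 1.28, beside a median of 0.178 over all genes tested. The members thus lay between the 97.1 and 97.9 percentile of all genes. The correlation of deviations from the age means was between 0.991 and 1.0 over the 45 pairs of members (15 mice, a description with no test, since all genes of a mouse share its library), so the calls of the 10 members are not 10 separate results.

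The level of each member was then set against an acinar index, the mean log2 CPM of 16 other acinar enzymes in the same mouse (among them trypsinogens, chymotrypsinogens, amylases, Clps and Pla2g1b), in an edgeR fit with a mean for each age. The index ran from 4.83 to 8.43 and holds no member. All 10 members rose with the index, with slopes of 0.95 (Pnliprp1, SE 0.0378) to 1.04 (Cpb1, SE 0.0324) log2 units per unit of index and edgeR adjusted p-values from 3.78e-09 to 2.11e-08. A slope of 1 means that a doubling of the other enzymes went with a doubling of the member. Of all 16554 genes, 50 were called (0.302%), each with a positive slope, and 384 had an unadjusted p under 0.05. The 16 index enzymes are among the 50, by construction.

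**Figure D3:**
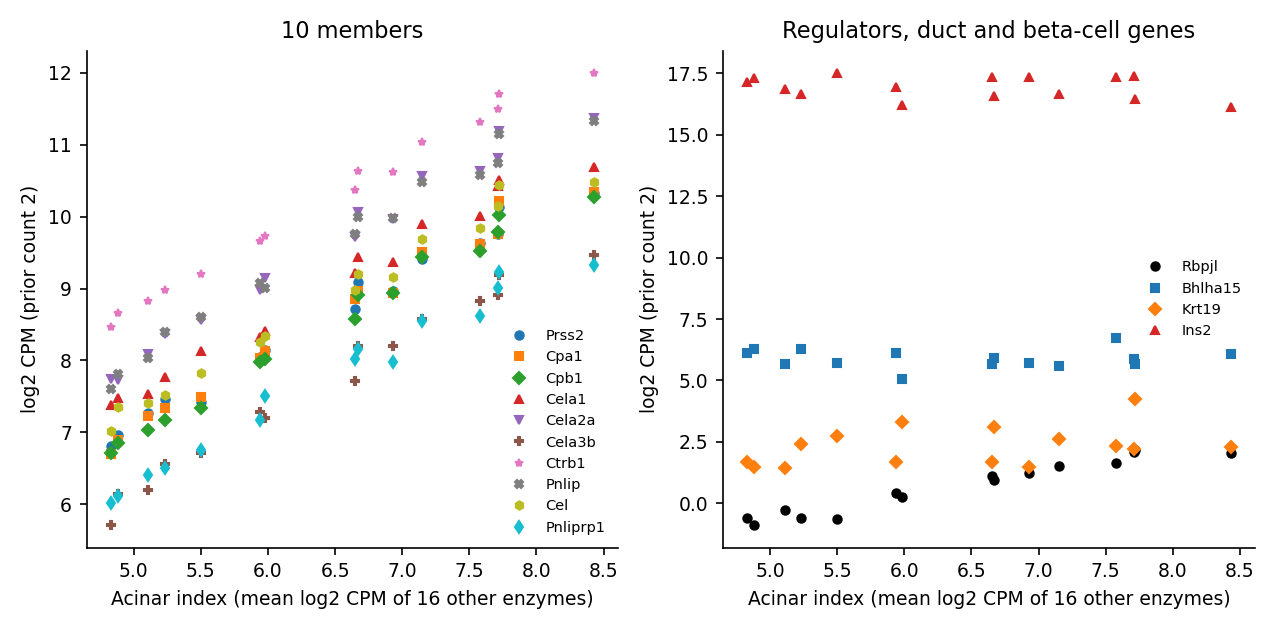
Log2 CPM against the acinar index for the 10 members (left) and for Rbpjl, Bhlha15, Krt19 and Ins2 (right), each point a mouse. The members and Rbpjl climb with the index, whereas the slopes of Bhlha15 (0.05), Krt19 (0.08) and Ins2 (0.00) were not called.

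Other secretory products of acinar cells rose with the index as well. Of 12 such genes tested, 11 were called, all rising, among them the granule protein Zg16 (slope 1.04, SE 0.0494), the granule membrane protein Gp2 (0.98, SE 0.0368), the lipase relative Pnliprp2 (1.03, SE 0.0453) and Sycn, syncollin of the zymogen granule (0.93, SE 0.0592). The trypsin inhibitor Spink1 and the cholecystokinin receptor Cckar, through which meals stimulate secretion, were called too, with slopes of 0.97 and 0.88. The water channel Aqp8 had a slope of 0.78 (SE 0.214) and did not pass (edgeR adjusted p = 0.768), at 0.0357 to 0.908 CPM.

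Of 5 transcription factors of acinar cells tested, 1 was called on the index and 2 had an unadjusted p under 0.05 in edgeR. Rbpjl, the PTF1 subunit restricted to acinar cells, rose with the index (slope 0.98, SE 0.0720, edgeR adjusted p = 6.52e-06) and ran from 0.470 to 4.47 CPM. Ptf1a had a slope of 0.71 with an SE of 0.236 at 0.0263 to 1.01 CPM and was not called. It had only 1 to 28 counts per mouse, so the missing call says little about whether Ptf1a follows the enzymes. Nr5a2, Gata4 and Bhlha15, which islet or other cells can also express, had slopes of 0.11, 0.31 and 0.05 and were not called. At 12 against 4 weeks Nr5a2 rose by 0.57 on the log2 scale (SE 0.194, edgeR adjusted p = 0.0244) and Gata4 by 2.07 (SE 0.560, adjusted p = 0.00793), and Rbpjl was not called (0.70, SE 0.892). Without replicate 1 of 12 weeks, a library with intestinal transcripts, Gata4 stood at 1.04 and was not called (edgeR adjusted p = 0.0513). Nr5a2 kept its call in 11 of the 15 fits that left out a mouse. Bhlha15, a factor of secretory cells, stood at 33.3 to 106 CPM over the 15 mice, a narrower range than that of Rbpjl.

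No marker of another cell type was called on the index: 0 of 7 duct genes, 0 of 10 endocrine genes, 0 of 7 leukocyte genes, 0 of 7 mesenchymal genes, 0 of 5 endothelial genes and 0 of 2 intestinal genes tested. Among all genes tested 0.302% were called on it, a share at which lists this short would mostly hold 0 calls. The slopes of the duct genes lay between -0.06 (Krt7, a duct keratin) and 0.19 (Cftr, a chloride channel), and those of the endocrine genes between -0.07 (Chga) and 0.04 (Gcg). The leukocyte slopes lay between -0.30 (Cd3e, of T cells) and 0.18 (Ms4a1, of B cells), with SEs up to 0.406, so slopes of this size were not distinguishable from 0. At 12 against 4 weeks, by contrast, all 7 leukocyte genes rose (median log2 fold change 4.76) and 8 of 10 endocrine genes fell (list median -0.90). The share called in that comparison among all genes tested was 53.5%. Of the duct genes, 3 of 7 rose and 2 fell, among them Krt19, another duct keratin (1.74, SE 0.396, and 1.20 without replicate 1 of 12 weeks), and Krt7 (-0.76, SE 0.127). Summed leukocyte markers stood at 15.6 to 83.4 CPM at 4 weeks and 673 to 886 CPM at 12 weeks, and summed endocrine markers fell from 311000 to 344000 CPM to between 152000 and 193000 CPM. Their part in the members' age estimates was not tested.

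**Figure D4:**
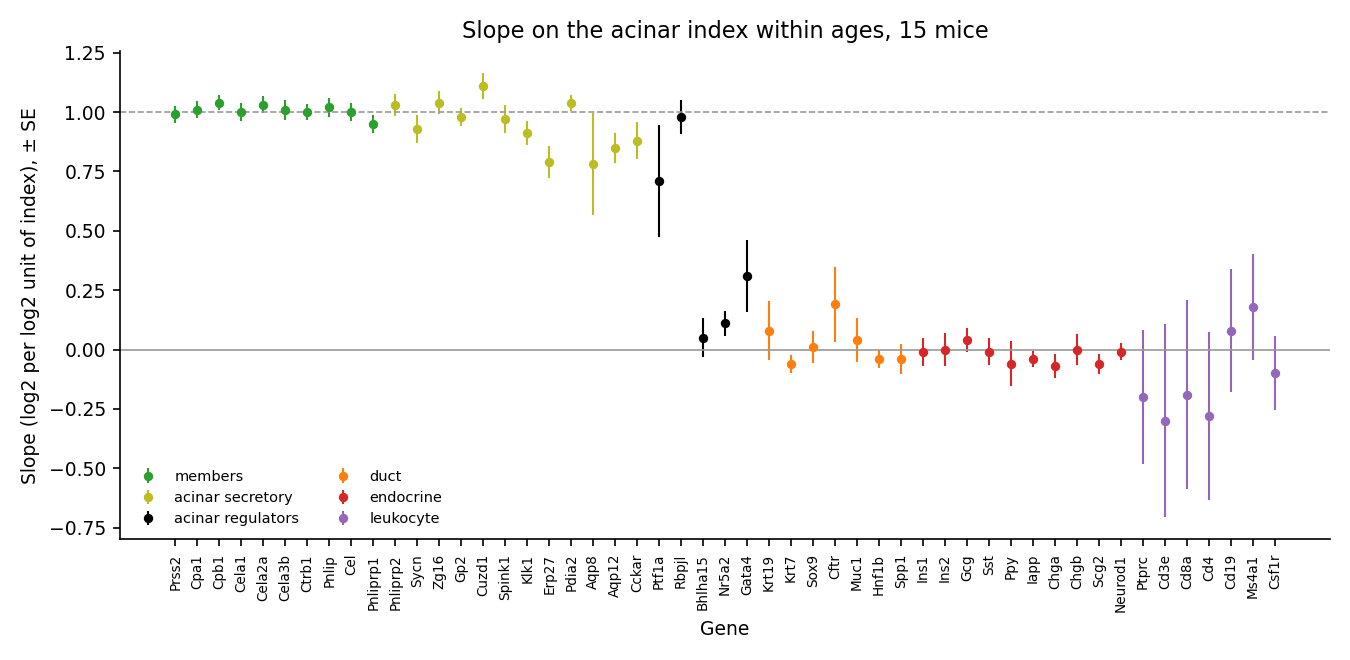
Slope on the acinar index within ages, with its SE, for the 10 members and the genes of 5 lists, from the edgeR fit over 15 mice. Members lie between 0.95 and 1.04, most acinar secretory genes near 1 (dashed line), and duct, endocrine and leukocyte genes around 0.

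Outside all lists, 12 genes were called on the index. The closest to the mean of the members, by the correlation of deviations from the age means over 15 mice, was 2210010C04Rik (r = 0.999, 86.0 to 1220 CPM). It was followed by Rnase1, the pancreatic ribonuclease (r = 0.998, 46.0 to 470 CPM), Tff2, a trefoil peptide (0.993), the serpin Serpini2 (0.991) and Dmbt1, a secreted scavenger receptor protein (0.990). Tmed11, the zinc transporter Slc39a5, Amy1, 1810018F18Rik and Reg1 completed the 10 closest, with r from 0.972 down to 0.944. In all, 39 genes other than the members had r above 0.9, of which 13 were in none of the lists.

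Per length of transcript, Ctrb1 ranked first in all 15 mice, while positions below it changed between mice. On the deposited TPM scale, which divides by length, Ctrb1 made up 33.6% of the summed level of the 10 members on average over the 15 mice (32.2 to 35.0%). Pnlip followed with 12.5%, Cela1 and Prss2 with 11.6% each, Cela2a with 10.9%, Cpa1 with 5.39%, Cel with 5.31%, Pnliprp1 with 3.25%, Cela3b with 3.09% and Cpb1 with 2.69%. Ctrb1 was above Pnlip in 15 of 15 mice (2.48 to 3.07 times), Cela2a above Cpa1 in 15 of 15 and Cel above Pnliprp1 in 15 of 15. The other neighbours in this order changed places in at least 1 mouse. Pnlip was above Cela1 in 12 of 15 mice, Cela1 above Prss2 in 6, Prss2 above Cela2a in 13, Cpa1 above Cel in 11, Pnliprp1 above Cela3b in 9 and Cela3b above Cpb1 in 14, with ratios on both sides of 1.

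Read assignment bears on some of these levels. Cela2a overlaps Casp9 and Ctrc in the annotation, and 21.7% of its 971 windows of 100 bases also occur in a Ctrc transcript, so its level is uncertain. Cela3b shares 12.6% of its windows with Cela3a. Prss2 belongs to a family of close trypsinogen copies, but 0 of its 716 windows was found in another gene of the GENCODE annotation, as was so for the other 7 members. Amy2a2, Amy2a3 and Amy2a4 in the index are near-identical copies. All 10 members were also called on the index with the amylases left out of it, beside 0.308% of all genes.

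The proportions among the enzymes moved far less than their level. Set against the mean of the other 9 members in the same mouse, the log2 ratio of a member had a within-age SD of 0.033 (Ctrb1) to 0.132 (Pnliprp1), where the level itself had one of 1.20 to 1.31. Over the 15 mice the ratio of Ctrb1 spanned 0.16 log2 units while its level spanned 3.53, and the widest ratio, that of Pnliprp1, spanned 0.42.

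Small differences with age remained in these ratios, given as a description. Cela1 was at 0.41, 0.38 and 0.31 log2 units in the 4-week-old mice, 0.17, 0.36 and 0.25 at 6 weeks, 0.18, 0.05 and 0.14 at 8 weeks, 0.15, 0.19 and 0.17 at 10 weeks and 0.15, 0.21 and 0.05 at 12 weeks. Its 3 ratios at 4 weeks lay above all 9 ratios from 8 weeks on. Cela2a was at 0.81, 0.81 and 0.59 at 4 weeks and 0.91, 0.94 and 0.87 at 12 weeks, without overlap. For Cpa1 the ratio was -0.35, -0.36 and -0.35 at 4 weeks and -0.17, -0.22 and -0.25 at 12 weeks, again without overlap. Pnlip was at 0.65, 0.73 and 0.68 at 4 weeks and 0.86, 0.85 and 0.72 at 12 weeks, with overlap. Ctrb1 averaged 1.60 ± 0.0271 at 4 weeks and 1.49 ± 0.0327 at 12 weeks (SD, n = 3). In all, the ratios at 12 weeks lay above those at 4 weeks without overlap in 2 members (Cpa1 and Cela2a), below them in 2 (Cela1 and Ctrb1), and overlapped in 6. No share over all genes was computed for such ratios. In level, a different measure, 64.2% of all genes tested had no overlap at 12 against 4 weeks. Each ratio is taken against the other 9, so higher ratios of some members lower those of others by construction.

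**Figure D5:**
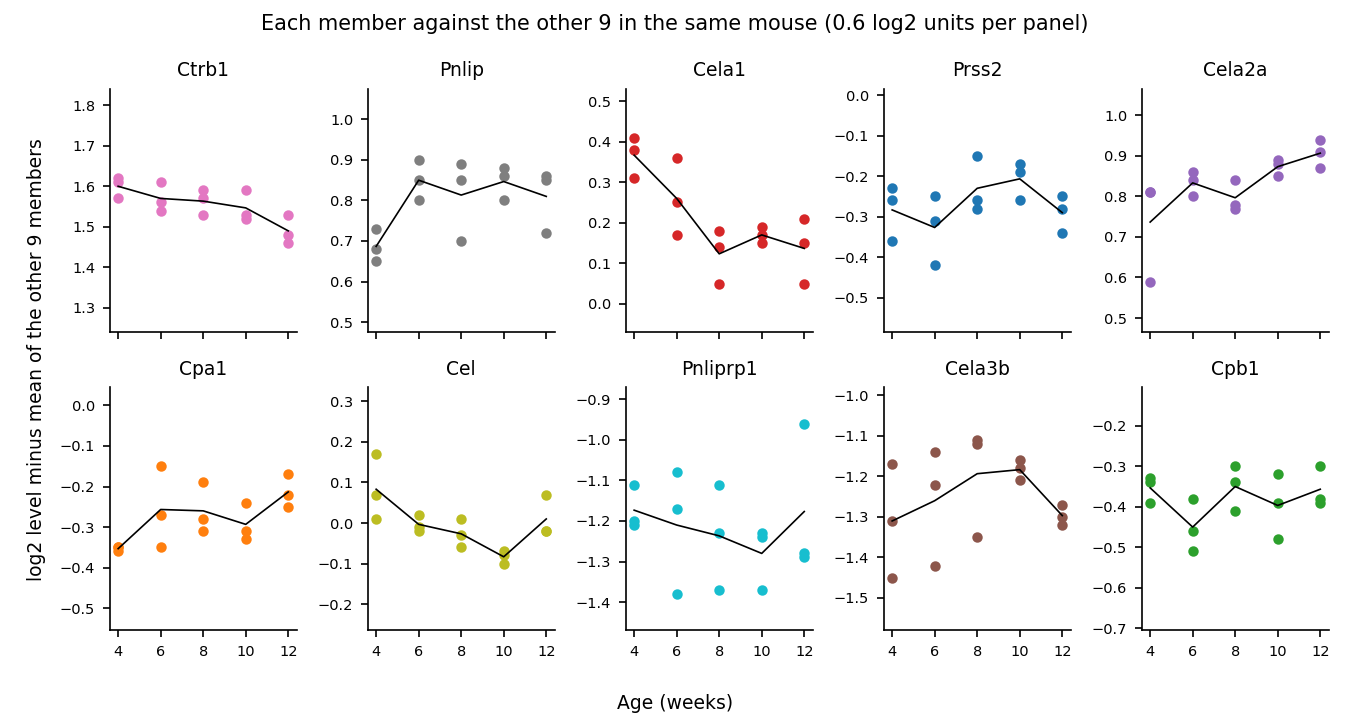
Log2 CPM of each member minus the mean log2 CPM of the other 9 in the same mouse, by age in weeks, with a line through the means of 3 mice. Panels span the same 0.6 log2 units, heights differ between panels with gene length and are not comparable, and Cela1 is highest at 4 weeks (mean 0.37).

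With the acinar index in the fit, the SEs of the age differences fell and the differences themselves were small. In the joint test of the 5 ages given the index, 0 of 10 members were called (edgeR adjusted p from 0.118 to 0.589) and 0 of 10 had an unadjusted p under 0.05, beside 49.8% of all genes called. DESeq2 called 4 of 10 in that test, beside 54.9% of all genes. For 10 and 12 against 4 and 6 weeks given the index, a contrast chosen after seeing the data, 2 of 10 were called beside 60.7% of all genes, Prss2 at 0.22 (SE 0.0845, adjusted p = 0.0387) and Cela2a at 0.24 (SE 0.0846, adjusted p = 0.0289). The 10 differences lay between 0.02 (Cela1) and 0.24 on the log2 scale, and the count ran from 0 to 7 as single mice were left out, with 0 after leaving out 4-week replicate 3, 6-week replicate 1, 10-week replicate 2 or 3, or 12-week replicate 1 or 2, and 7 after leaving out 10-week replicate 1 (58.1% of all genes). At 12 against 4 weeks given the index, likewise chosen after seeing the data and not repeated under the alternatives, 2 of 10 were called beside 47.7% of all genes, Cpa1 at 0.36 (SE 0.121, adjusted p = 0.0276) and Cela2a at 0.37 (SE 0.123, adjusted p = 0.0273).

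Most listed transcripts of intestinal epithelium marked 2 libraries, and the 2 tested were not called on the acinar index. Fabp2, a fatty acid-binding protein of enterocytes, had 257 counts in replicate 2 at 6 weeks and 1335 in replicate 1 at 12 weeks, and 0 to 2 elsewhere. The summed level of 10 intestinal genes was 137 and 536 CPM in these mice and 36.6 to 78.2 CPM in the other 13, with Vil1, which islets also showed in every mouse at 32.9 CPM or more, as the main part elsewhere. The members took 0.237 and 1.65% of counts in these mice, the lowest share at 6 weeks and the highest at 12. Without both mice, all 10 members were still called on the index, beside 0.296% of all genes. At 12 against 4 weeks 0 of 10 were then called, beside 47.9% of all genes.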

How the data were processed

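Islet RNA of 15 NOD mice was enriched for polyA and sequenced as read pairs at Novogene, and the authors used CLC Genomics Workbench, left at its defaults, to trim, align and count. The submitters' processing notes name mm10 as the build. The deposited counts are whole reads per gene with no normalization, and the deposited TPM, scaled by length and library by the authors, gave levels between genes. A further 30 per-sample columns were not used here. Counts per sample ran from 25407492 to 41616275, so that 3 counts equal 0.0754 to 0.128 CPM.

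Counts were tested with edgeR 4.0.16 in R 4.3.3 (filterByExpr, TMM, glmQLFit with a mean per age, glmQLFTest, Benjamini-Hochberg over 16554 genes, two-sided). Log2 CPM used a prior count of 2. The index enters as a covariate. It has 16 of 17 listed enzymes, since Cela3a did not pass the filter. Of these, 1 is not named here. The pipeline was tested on simulated data. Python 3.11.15 and matplotlib 3.10.9 made tables and figures. Promoters are from RefSeq (10 of 10 members matched), shared windows from GENCODE M21 transcripts.

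The members and lists were chosen with earlier results of these data known. Named genes are all members, listed genes that were called or at most 4 a list, and the 10 genes outside the lists that correlate best with the members. The ratio to the other members and the overlap of single mice were described without a test. The alternatives were DESeq2 1.42.0, its size factors in edgeR, library totals, no filter, the 2 ages alone, the replicate number as a block, each mouse left out, a prior count of 0.5, and other indices. Neither labels nor methods give a sequencing batch.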

Additional observations from a re-analysis of the deposited data

How the results depend on the processing

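Of 1145 values from alternatives of 53 results, 1050 kept the direction and the side of the threshold, and the exceptions lie in the age comparisons without single mice, the fits given the index and the spread. All 10 members were called on the index under each of 23 alternatives, beside 0.215 to 0.362% of all genes. Leaving out single mice moved the count from 0 to 10 of 10 at 12 against 4 weeks and at 10 and 12 against 4 and 6 weeks, the 10 coming from 4-week replicate 2 alone in both, and the median spread within ages from 1.08 to 1.35. Any age given the index gave 0 to 3 calls without single mice, beside 38.1 to 53.6% of all genes. The 3 came without 10-week replicate 1 (47.8%), and DESeq2 gave 4 (54.9%), where the main fit gave 0 (49.8%). At 10 and 12 against 4 and 6 weeks given the index, the main fit gave 2 calls. There were 0 to 7 without single mice (51.1 to 62.4% of all genes) and 7 with DESeq2 (58.8%). With the trypsinogens out of the index there were 0 (60.1%), and 0 without both mice with intestinal transcripts (56.8%). In that contrast Cela1 ran from -0.05 to 0.09 without single mice (0.02 with all), being -0.02 without 6-week replicate 1 and -0.01 without 12-week replicate 1 or 2, and with the trypsinogens out of the index Cela1 was -0.10, Ctrb1 -0.02 and Cel -0.03. The cause was not tested. Library totals in place of TMM moved the all-gene median of the log2 fold change from -0.048 to 0.197 at 12 against 4 weeks. The members stayed uncalled, beside 50.6% of all genes called.

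The replicate numbers name different animals at each age. Over all genes tested, the deviations of mice with the same number correlated by -0.403 to 0.293 on average per pair of ages (-0.643 to 0.509 for single numbers). These values are not specific to the members, whose share was highest in replicate 1 at 6, 8, 10 and 12 weeks. The cause was not tested. With the number as a replicate block, 1 of 10 members was called at 10 and 12 against 4 and 6 weeks given the index. Of all genes, 56.7% were called there. At 12 against 4 weeks the block gave 0 of 10 members beside 50.3% of all genes.

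With 3 mice per age and a spread of this size, the SE of a member's change between 2 ages was 0.857 to 0.943 log2 units, and differences of up to 1.18 were not called. The lowest count of any member in any mouse was 1394, and the effect of sequencing depth was not tested.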
